A study of Cicer arietinum with 8 samples.

Results

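Among 559 cDNA probes with codes starting U or CA on a chickpea array, 54 gave more signal from salt-treated than from control roots at 48 h while their mean ratio in shoots stayed near 0 or could not be measured. They were 40 of 442 U probes and 14 of 117 CA probes. A probe entered in 1 of 2 ways. By the ratio criterion, which took 29 probes, the log2 ratio of treated over control signal was above 0 on every salt roots 48 h array that gave a value, on at least 2 arrays, with a mean of at least 0.585 (1.5-fold). By the detection criterion, which took 25 probes, at least 3 of the 6 spots stood above background mean plus 2 SDs in all 3 treated channels and in no control channel. No probe met both. A probe was dropped when its mean log2 ratio in shoots at 48 h lay beyond 0.585 in either direction. Ratios are background-subtracted and centred on the median of the U and CA probes of the array.

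Each array compared total RNA of stressed and unstressed plants of chickpea (Cicer arietinum) genotype ICC 3996 in 2 colours, with 3 arrays for each of 8 conditions. For salt, seedlings in aerated hydroponic crates were moved on day 18 into fresh Hoagland's medium with 150 mM NaCl, control seedlings received the same fresh medium without it, and roots or shoots (stem and leaf) of 5 plants a group were taken after 24 h or 48 h. Drought was applied from 2 weeks after flowering to potted glasshouse plants until treated pots reached 30% water content, against 80% in control pots, and cold consisted of a week of nights at 5 °C against glasshouse temperature. Leaves, or flowers with early pods, were taken in both. Whole organs were sampled, so fewer cells of a type and less RNA per cell cannot be told apart. RNA came from tissue pooled by organ and time, and how plants were divided over the 3 pools is not stated in the labels.

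Roots meet salt before the shoot does. Sodium and chloride enter through the outer root cells, where plants answer both the lowered water potential and the ions themselves, with exclusion of sodium at the root surface, storage in vacuoles and control of loading into the xylem. Chickpea is counted among the salt-sensitive grain legumes. The files name probes by code only, with no description or sequence, so no role is given to any of them, and the labelled tissues could not be checked against marker genes.

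The word "only" in "raised by salt in roots only" was not measured for all of the probes. A shoot ratio at 48 h existed for 36 of the 54, on 3 arrays for 29, on 2 for 4 and on 1 for 3. The other 18, of which 15 came from the detection criterion, passed because they had no shoot ratio. Of those 18, 4 were above background in none of the 12 shoot channels of both times, and 14 were above it in at least 1. A further 40 probes met a root criterion and were dropped, 32 for a shoot mean above the upper limit and 8 for one below the lower.

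The root arrays differed in how well they saw control RNA. Treated channels had 346 to 387 U and CA probes above background, and control channels 146, 300 and 232 on arrays 1, 2 and 3. A root criterion was met by 94 of the 559 probes (16.8%), and no probe showed the mirror pattern, above background in every control channel and in no treated one. The dimmer control channels move with the selection, and their part in it was not tested. Array 2, with the brightest control channel, limited the list most. Without it the rule took 89 probes, 45 of them among the 54, with 16 by ratio and 73 by detection in place of 29 and 25. Without array 1 it took 48, all among the 54, and without array 3 it took 53, of which 40 were shared. Keeping spots that the image software had flagged gave 65 probes, of which 35 were shared.

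The values at 48 h that follow chose the probes and are a description, with no test. U270 had ratios of 2.97 and 3.00 on arrays 2 and 3, a mean of 2.98 ± 0.03 (SD, n = 2 arrays) or 7.91-fold. It had no ratio on array 1, where all of its spots were left out. The 2 values nearly coincide.

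CA0554 had ratios of 2.61, 2.53 and 3.62 on arrays 1, 2 and 3, a mean of 2.92 ± 0.61 (SD, n = 3). Of its 6 treated spots, 6, 5 and 6 were at the top of the scanner's range on the 3 arrays, so the true ratio may be larger than this mean, or than the 2.77 that normexp and loess gave. The same holds for U022 (mean 0.66, or 0.53 with normexp and loess, with 6, 6 and 5 such spots), and U270, U390 and CA0021 had such spots on some arrays. U415 had 1.73 and 3.27 on arrays 2 and 3, a mean of 2.50 ± 1.09 (SD, n = 2), the widest spread of the 29. Its value on array 3 came from 1 spot.

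U286 had 2.44, 1.63 and 1.90, a mean of 1.99 ± 0.41 (SD, n = 3), and U349 had 1.50 and 2.24, a mean of 1.87 ± 0.52 (SD, n = 2). These 5 probes had the largest means. Below them followed CA0968 with 1.10 and 1.78 (mean 1.44), U354 with 1.49 and 1.37 (1.43), U081 with 1.95 and 0.79 (1.37) and CA0880 with 1.13 and 1.15 (1.14), all on arrays 2 and 3. Of these, U354 and CA0880 repeated closely and U081 did not, but CA0880 is at -2.0 in the authors' deposited table. The CA0968 values came from 2 spots on array 2 and 1 on array 3, and the array 3 value of CA0880 from 2.

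Over the 29 probes the mean ratio ran from 0.64 to 2.98 with a median of 1.03, and 16 had a mean of at least 1, or 2-fold. A value on array 1 existed for 15 of them, and arrays 2 and 3 gave values for all 29. Among those 15, array 1 was the highest for 10, array 3 for 5 and array 2 for 0, and the medians were 1.38, 0.75 and 0.90 on arrays 1, 2 and 3. Array 1 is the one on which the control channel was dimmest.

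A set of 4 probes rested mostly on array 1, a set picked out after its values were seen. U077 had 2.08, 0.95 and 0.38 on arrays 1, 2 and 3, and U390 had 1.96, 0.93 and 0.20. For U224 the ratios were 1.92, 0.71 and 0.34. CA0021 had 1.75, 0.25 and 0.06. Their order over arrays was the same in all 4, and without array 1 their ratios on the remaining arrays lay between 0.06 and 0.95. U216, at 1.43 and 0.12 on arrays 2 and 3, was also widely spread (SD 0.93).

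The plot of root ratios by array shows how far the arrays of one probe lie apart.

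**Figure D1:**
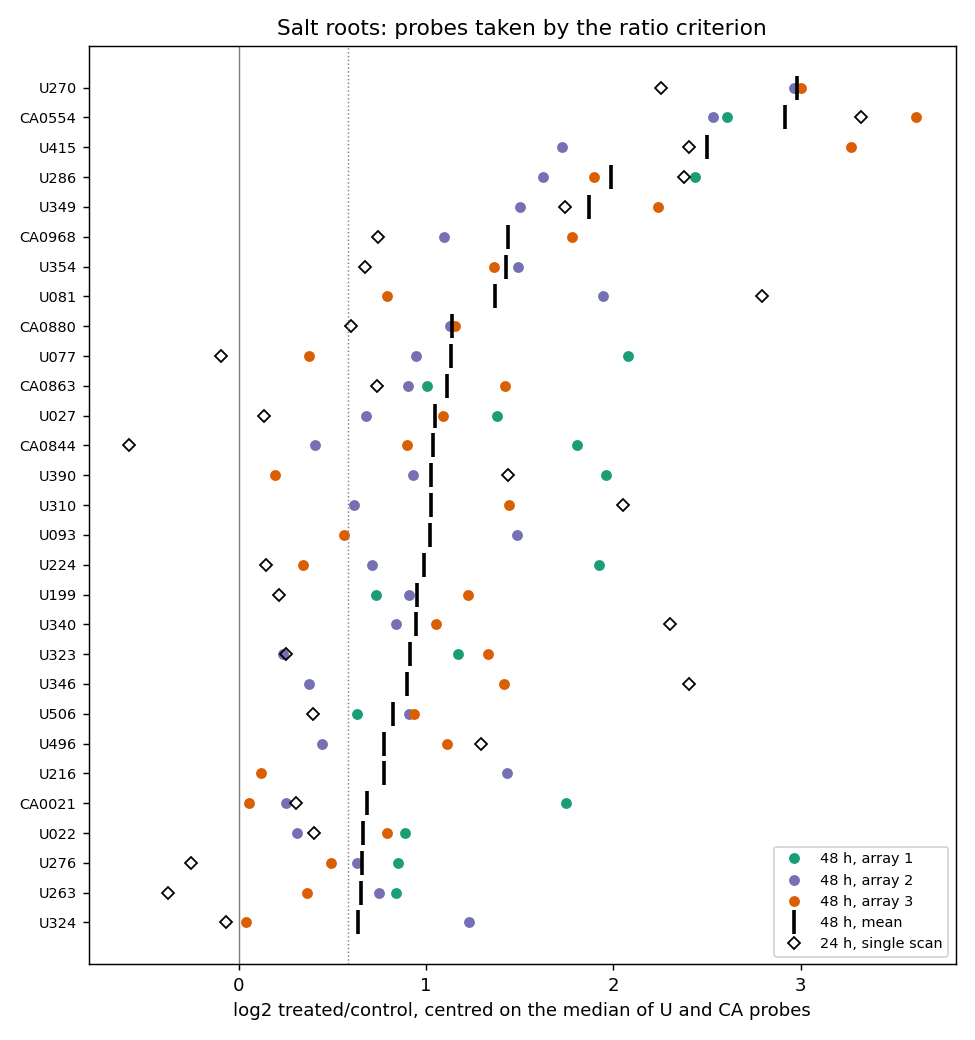
Log2 treated/control in salt roots for the 29 probes of the ratio criterion (rows, ordered by their 48 h mean); filled points are the 3 arrays at 48 h, black bars their mean, open diamonds the single scan at 24 h, and the dotted line is the limit of 0.585. The 48 h means run from 0.64 (U324) to 2.98 (U270), and the 24 h values from -0.59 (CA0844) to 3.32 (CA0554).

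Membership at the lower end turned on small differences. Just inside the limit were U324 at 0.64 (1.23 and 0.04 on arrays 2 and 3, the latter from 1 spot), U263 at 0.65 and U276 at 0.66. Just outside it were U229 at 0.56, U006 at 0.51 and CA0897 at 0.49, which were above 0 on every array with a value but missed the mean.

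At the upper shoot limit, U276 (mean shoot ratio 0.54), U270 and U022 (both 0.52) were kept, and U038 (0.60), U188 (0.65) and U411 (0.66) were dropped. At the lower limit CA0863 (-0.57), U349 (-0.55) and U346 (-0.51) were kept, and U350 (-0.59), CA0721 (-0.71) and CA0014 (-0.72) were dropped. U349 was at -0.60 in shoots with normexp and loess, beyond that limit. U270, the probe with the largest root mean, thus lies close to the upper shoot limit, though its shoot mean is far below its root mean. With normexp and loess it was at 2.87 in roots and 0.30 (SE 0.18) in shoots. Its shoot ratios at 48 h were 1.23, -0.14 and 0.47 on arrays 1, 2 and 3. CA0554 had 1.37, -0.28 and -0.13 in shoots, and U286 had 1.12, 0.08 and -0.37. In each of these 3, array 1 of the shoots was above 1 and the other arrays were spread around 0.

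For the 25 probes of the detection criterion, fewer than 3 of 6 control spots passed background plus 2 SDs in each control channel. The mean control signal was still above local background, as for U494 (1.33, 1.49 and 1.45 times), so it was weak and not shown to be absent. No spot was unflagged and positive in both channels, so no ratio exists, apart from a single array each for CA0988 (1.89) and U111 (1.06). All 6 treated spots were above background on all 3 arrays for 6 of the 25, and not 1 control spot was for 12. Treated signal over local background was 9.69, 7.92 and 10.06 for U271 on arrays 1, 2 and 3, against 1.23, 1.10 and 1.51 in the control channels. CA1198 had 12.05, 10.40 and 6.64 in the treated channels and 1.13, 1.53 and 1.32 in the control channels. For both, every treated channel exceeded every control channel by a wide margin.

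U257 had 8.38, 6.01 and 2.18 in treated and 1.09, 1.25 and 1.11 in control channels. Treated values at 48 h were lower for U111 (5.14, 3.48 and 3.47), U114 (3.83, 3.14 and 2.96), CA1125 (4.17, 2.83 and 3.20), CA0988 (3.72, 2.75 and 4.30) and U238 (5.10, 3.01 and 2.18). At the weak end, U333 had 2.60, 1.66 and 1.57 in the treated channels against 1.35, 1.18 and 1.11 in the control channels, with 6, 3 and 3 treated spots above background. The list therefore runs from a clear signal to one near the cut.

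A lower bound on the fold was set from the normalised treated mean over the dimmest signal that still counted as above background, or over the probe's own control signal where that was higher. Unlike in the tests, flagged spots were kept here, and average intensities were scaled between arrays by quantiles. The bound was 4.74-fold for CA1198, 4.37-fold for U271 and 2.37-fold for U257. Each is computed from means over the 3 arrays and has no spread. Bounds for the other 16 probes that gave one were between 1.01-fold and 1.87-fold, and 6 probes gave none. These bounds rest on the arrays that selected the probes.

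**Figure D2:**
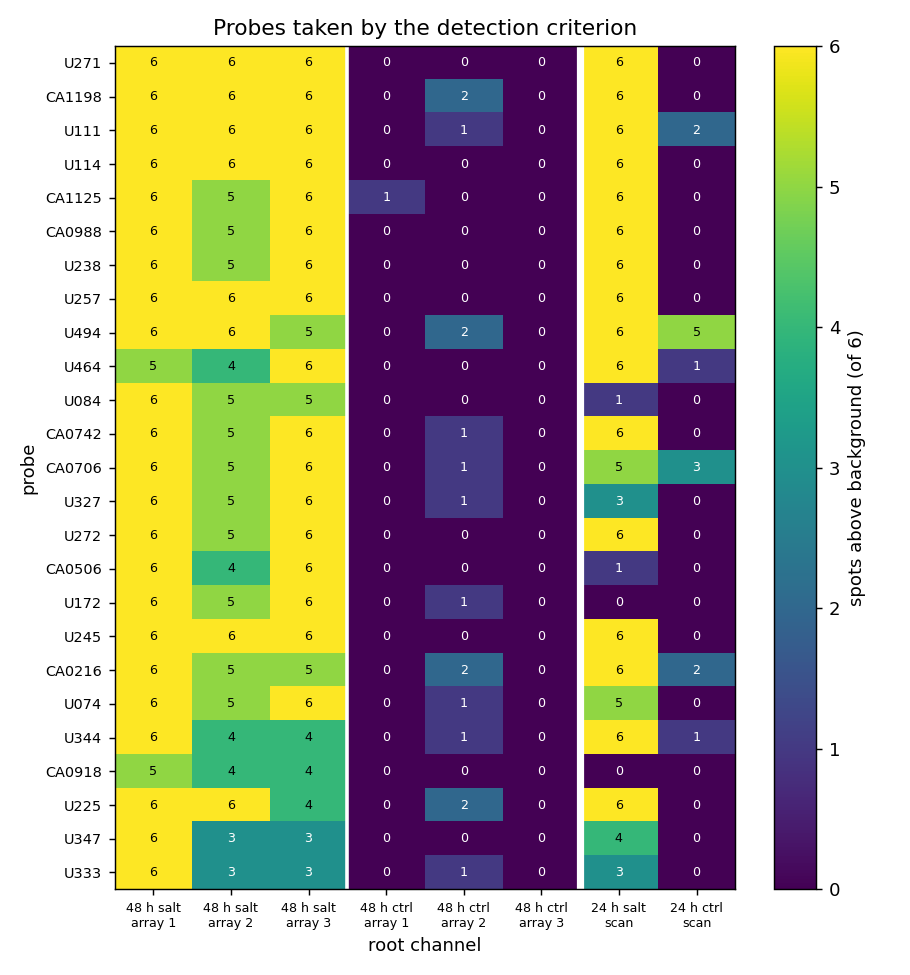
Number of spots above background, out of 6, for the 25 probes of the detection criterion (rows, ordered by their lowest treated signal over background at 48 h) in each root channel; the last 2 columns are the salt and control channels of the 24 h scan. At 24 h, U271, CA1198 and U114 have 6 treated and 0 control spots, U172 and CA0918 have 0 in both, and U494 has 6 and 5.

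Roots at 24 h did not enter the rule. The 3 arrays deposited for them are rescaled copies of 1 scan (the pixel SDs agree at 100% of spots), so there is a single value a probe, no spread and no test, and its sign rests on how the channels are named, since which dye marked which RNA in it is not known. With this limit, 20 of the 54 probes were above background in the treated channel alone, against 59 of 559 U and CA probes (10.6%). They were 18 of the 25 detection probes and 2 of the 29 ratio probes (U093 and U216). Among the other detection probes, CA0216, CA0706 and U494 were seen in both channels in at least 1 copy, and CA0506, CA0918, U084 and U172 in neither. The control channel alone was above background for 0 of the 54 members. It was so for just 9 of all 559 U and CA probes, so the 0 does not set the members apart. In this scan too, fewer U and CA probes were above background in the control channel (292 to 298 over the copies) than in the treated one (346 to 351), and the part of that gap in the counts was not tested.

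A ratio at 24 h existed for 33 of the 54 probes and was above 0 for 27, against 143 of 286 U and CA probes (50.0%, which centring on their median fixes). It was at or above 0.585 for 16 of 33, against 69 of 286 (24.1%), and at least 1 for 11 of 33, against 46 of 286 (16.1%). All 11 were ratio probes. The median ratio was 0.68 over the 27 ratio probes with a value and 0.24 over the 6 detection probes.

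The 27 ratio probes lay on either side of a gap between 0.74 and 1.30. In 11 the 24 h value was between 1.30 and 3.32. CA0554 had 3.32, U081 2.79, U415 2.41, U346 2.40 and U286 2.38, and the others were U340, U270, U310, U349, U390 and U496. In the other 16 it was between -0.59 and 0.74, and 5 of those were below 0. The 24 h value exceeded the 48 h mean in 8 of 27. For U346 these were 2.40 at 24 h and 0.37 and 1.42 on arrays 2 and 3 at 48 h, for U340 2.30 against 0.84 and 1.05, for U081 2.79 against 1.95 and 0.79, and for U310 2.05 against 0.61 and 1.44. In these 4 the 24 h value was above every 48 h array, but it has no spread of its own.

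The lowest values at 24 h were -1.09 for U344, a detection probe, then -0.59 for CA0844, -0.38 for U263, -0.25 for U276 and -0.09 for U077. CA0844 had 1.81, 0.41 and 0.90 at 48 h, all above its 24 h value. Across the 27 ratio probes the 24 h value and the 48 h mean had a Pearson r of 0.67, and across all 222 U and CA probes with both it was 0.77. These are correlations across probes on shared slides, which are not independent replicates, and the 27 had been chosen on one of the axes.

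In the authors' deposited table, made from the same arrays, 23 of the 29 ratio probes were above 0 in the salt roots 48 h column, against 121 of 298 U and CA probes listed there (40.6%). The 6 below 0 in the authors' deposited table were CA0880 at -2.0, U216 at -1.04, U340 at -0.37, U346 at -0.12, U093 at -0.08 and U310 at -0.02. In its 24 h column 17 of 27 were above 0, against 93 of 272 (34.19%), and CA0880 was at -1.65. The column medians were -0.30 and -0.34, and 26 of the 29 and 22 of the 27 lay above them. The table repeats the same measurement and adds no replicate.

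Many of the 54 probes were above background outside roots, in control as well as stressed tissue. Of the 29 ratio probes, 26 to 29 were above background in each control channel of both shoot times, of leaves and of cold flowers, and 20, 29 and 28 in the control channels of drought flowers. Over all 559 U and CA probes the control channels had 354 to 399 above background in shoots at 48 h, 355 to 436 in shoots at 24 h, 324 to 483 in leaves and 240 to 444 in flowers. In control roots these counts were 146 to 300 at 48 h and 292 to 298 at 24 h. Of the 25 detection probes, none was above background in control roots at 48 h and 2 to 3 were at 24 h. The detection criterion fixes that absence at 48 h, so it cannot be set against other tissues. Control shoots had 5 to 11 of them above background at 48 h and 6 to 16 at 24 h, control leaves 3 to 20 and control flowers 0 to 22. The 0 is drought flowers array 1, the control channel with the fewest U and CA probes above background outside roots (240). Outside roots the counts of different tissues overlapped, and no test of a tissue difference was made, since the arrays pair stressed with control RNA and not tissue with tissue. Within arrays, more detection probes were above background in the treated than in the control channel on all 3 arrays in shoots at 48 h (16, 15 and 9 against 8, 11 and 5), drought leaves (4, 18 and 16 against 3, 15 and 10) and drought flowers (8, 21 and 21 against 0, 20 and 16). Over all U and CA probes the treated count was also the higher on each of those arrays. In the other 3 conditions outside roots the order varied between arrays.

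**Figure D3:**
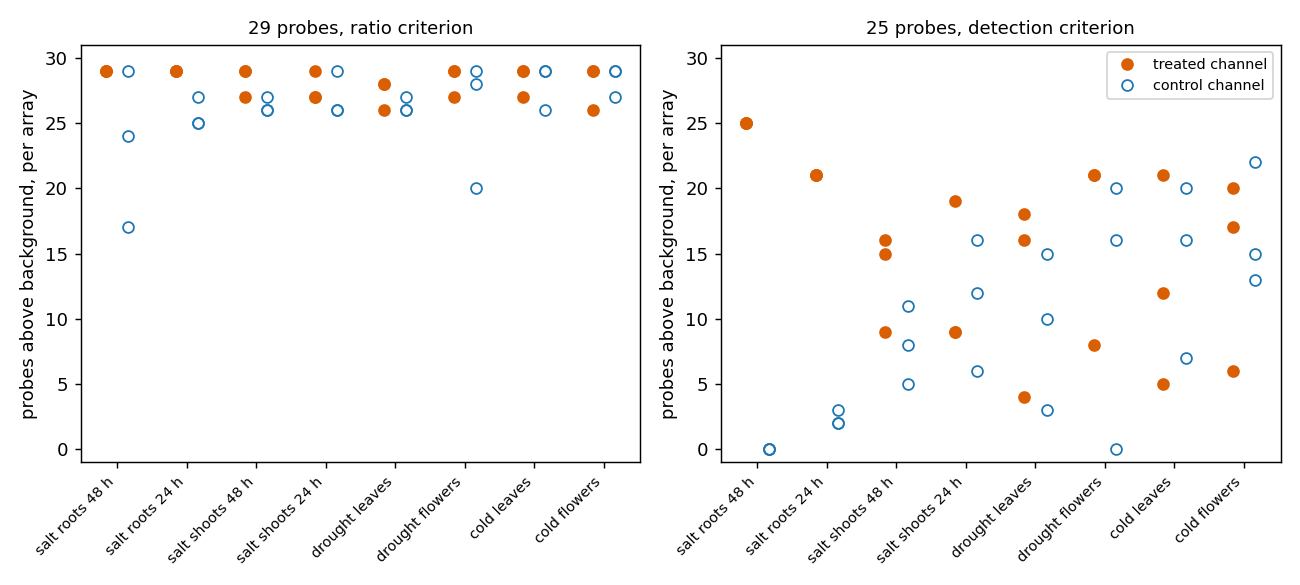
Number of probes above background on each array in the treated (filled) and control (open) channel of the 8 conditions, for the 29 ratio probes (left) and the 25 detection probes (right). Roots at 48 h selected the probes; at 24 h, 21 detection probes are above background in the treated channel and 2 to 3 in the control, while outside roots the treated count is the higher on all 3 arrays of shoots at 48 h and of drought, and of varying order in the other conditions.

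The treated-only pattern that defined the detection probes in roots was rare elsewhere. In shoots at 48 h, 2 of the 54 were above background in every treated and no control channel, against 8 of 559 U and CA probes (1.43%). They were 1 ratio and 1 detection probe. The rule drops probes on a shoot ratio and not on this pattern. By the detection measure, "roots only" therefore does not hold for these 2. In shoots at 24 h and in drought and cold it was 0 of 559 (0.0%) in each condition.

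In shoots at 48 h, where the rule kept only probes near 0, the 36 means ran from -0.57 to 0.54 with a median of -0.01, with 17 above 0 and 18 below. Shoots at 24 h were not used by the rule. Probes that moved in shoots at 48 h had been dropped, however, so a low count in the same organ at 24 h is partly built in. There 35 of the 54 probes could be tested and 0 passed an adjusted p of 0.05 in limma, against 20 of 394 probes (5.08%). At an unadjusted p under 0.05 there were 3, against 109 of 394 (27.7%). The median log2 ratio of the 35 was 0.05 and that of all 394 was 0.03. The 35 are the probes bright enough in both channels on at least 2 arrays, 26 of the ratio and 9 of the detection criterion, so nothing was tested for the other 19.

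CA0554, at 2.77 on the same normalised scale in roots at 48 h, had normalised log2 ratios of -0.92, -0.22 and -0.77 in shoots at 24 h. The limma estimate was -0.63 (SE 0.27, 95% interval -1.21 to -0.06, adjusted p = 0.150). All 3 arrays were below 0, but the difference did not pass. U022 had 0.13, 0.13 and 1.41, with an estimate of 0.59 (SE 0.26, adjusted p = 0.159), but its treated spots were at the top of the scanner's range on arrays 1 and 2, as were 6 and 1 of its control spots, so those 2 ratios cannot be read as sizes. Array 3, the one with no such spot, was the high one, and without it the estimate was 0.14. U270 had -0.23, 0.03 and -0.00 in shoots at 24 h, with an estimate of -0.11 (95% interval -0.50 to 0.29, adjusted p = 0.764), where its root arrays at 48 h were near 3.

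Drought and cold gave no member past the threshold in limma either. Drought leaves had 0 of 37 (0.0% of 441 probes), drought flowers 0 of 36 (0.0% of 434), cold leaves 0 of 39 (16 of 429 probes, 3.73%) and cold flowers 0 of 36 (0.0% of 433). At an unadjusted p under 0.05 the counts were 8 of 37 against 17.7% of all probes, 5 of 36 against 11.8%, 6 of 39 against 16.8% and 3 of 36 against 11.8%. Median ratios of the probes were 0.08, 0.11, 0.01 and 0.07, and those of all probes -0.01, 0.04, 0.01 and -0.02. The counts at an unadjusted p were near the background in each condition.

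**Figure D4:**
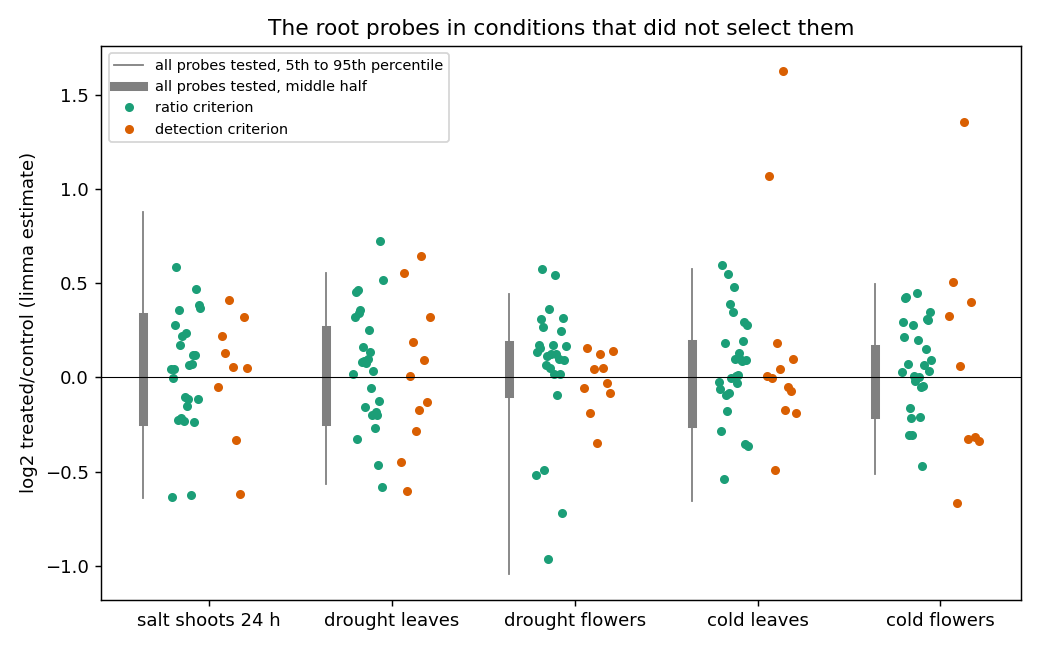
Limma estimates of log2 treated/control for the root-selected probes that could be tested in 5 conditions the rule did not use (points, by criterion), beside the 5th to 95th percentile (thin line) and the middle 50% (thick line) of all probes tested. None of the points passed an adjusted p of 0.05. The highest, U074 in cold leaves at 1.62, rests on 2 arrays, and array 3, with no ratio, had more signal over background in the control channel.

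U496 and U415 had the smallest p-values in drought leaves. U496 had -0.29, -0.67 and -0.89 on arrays 1, 2 and 3, with a limma estimate of -0.58 (SE 0.17, 95% interval -0.95 to -0.21, adjusted p = 0.178). U415 had 0.96, 0.35 and 0.55, with an estimate of 0.73 (SE 0.23, interval 0.24 to 1.21, adjusted p = 0.179). All 6 treated spots of U415 were at the top of the scanner's range on arrays 2 and 3 and no control spot was. Those 2 ratios, and the estimate that uses them, therefore cannot be read as sizes. With median centring in place of normexp and loess they were 0.003 and 0.61. Neither probe passed. Without array 3 the estimate for U496 was -0.31 (adjusted p = 0.995 in limma), and without array 1 that for U415 was 0.45 (adjusted p = 0.408).

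In drought flowers the smallest p-values belonged to U390 and U224, which are also among the 4 probes high on array 1 of the roots. U390 had -1.56, -0.30 and -0.23, with a limma estimate of -0.72 (SE 0.23, adjusted p = 0.229). U224 had -2.15, -0.29 and -0.22, with an estimate of -0.96 (SE 0.35, adjusted p = 0.248). Array 1 gave most of both values, and without it the estimates were -0.26 and -0.26. Calls were made for U390 without array 2 (adjusted p = 0.0492 in limma), and for U390 and U224 without array 3 (both adjusted p = 0.0486, with estimates of -1.07 and -1.56). CA0021 and U077 were at -1.35 and -1.48 on array 1, on the same loess scale, and between -0.20 and 0.14 on the other 2. The control channel of that array and that of roots array 1 are the dimmest of their conditions, while the 4 probes deviate downwards in the one and upwards in the other. Whether the channels have a part in either was not tested.

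CA0863, CA0506 and U074 stood out in cold without passing. CA0863 had -0.28, 0.86 and 0.90 in cold leaves, a limma estimate of 0.60 (SE 0.17, interval 0.24 to 0.95, adjusted p = 0.0606), and 0.17, -0.17 and 0.94 in cold flowers (0.42, SE 0.17, adjusted p = 0.279). In cold leaves 2 of its arrays were high and 1 low. Without array 1 the limma estimate was 0.88 (adjusted p = 0.0324), without array 2 it was 0.31 (adjusted p = 0.426), without array 3 it was 0.60 (adjusted p = 0.242), and with no dye term it was 0.49 (adjusted p = 0.372). CA0506 had 1.41 and 0.72 in cold leaves (1.07, SE 0.27, adjusted p = 0.148) on 2 arrays.

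U074 had 2.82, 1.72 and -0.04 in cold flowers, a limma estimate of 1.36 (SE 0.40, interval 0.41 to 2.30, adjusted p = 0.199). Without array 1 the estimate was 0.84, and without array 3 it was 2.31. In cold leaves it had 2.11 and 2.01 (1.62, SE 0.54, adjusted p = 0.190). Arrays 1 and 2, with the stressed RNA in Cy5, were high in both tissues. Array 3, with the dyes exchanged, was near 0 in flowers and gave no ratio in leaves. There 0 treated and 6 control spots were above background. Signal over background on it was 1.10 treated and 2.10 control, the reverse of the order on arrays 1 and 2. The leaf estimate of 1.62 does not include that array. In drought U074 had 0.21 and 0.16 in leaves and -0.45 and -0.24 in flowers.

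By their codes, the U probes of the list were spread unevenly. In runs of 40 consecutive code numbers, U320 to U359 held 10 of the 40 U members among 34 probes, U240 to U279 held 7 among 39, and the other 11 runs held 0 to 5. The 10 were U323, U324, U340, U346, U349 and U354 from the ratio criterion and U327, U333, U344 and U347 from the detection criterion. Of those 6 ratio probes, all had a shoot mean below 0 at 48 h, from -0.10 for U340 to -0.55 for U349. Among all 36 members with a shoot ratio, 18 were below 0, and centring on the array median makes that sign common. U344, the only detection probe of the run with a shoot ratio, was at 0.44. By position on the slide, the 4 columns of subgrids held 10 of 196, 20 of 196, 14 of 91 and 10 of 76 U and CA probes. Code runs were counted after the codes of the list had been seen, and these counts carry no test.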

How the data were processed

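The deposited intensity values are the mean pixel brightness of each spot and of its local background, from ImaGene 5.5, per the file headers, which also record the flags set by that software. The deposited log2 values are the authors' means over 3 biological replicates, per the labels, after background subtraction and LOWESS by the series design, and were used only for signs, column medians and the few values printed. The members and lists were chosen with earlier results of these data known. The rule was applied as given, after unflagged spots positive in both channels were averaged.

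For the tests, background was corrected with normexp (offset 50), arrays were normalised with global loess, spots with a flag in a channel were not used, and limma 3.58.1 in R 4.3.3 fitted 21 arrays with a term per condition and a dye term. Salt roots at 24 h stayed out of the fit. Testing a probe required 2 of the 3 arrays of a condition. Benjamini-Hochberg adjustment ran over every probe tested there, with a limit of 0.05. P-values rest on a spread per probe pooled over the 21 arrays of 7 conditions, not on the 3 arrays of a condition alone. Having 3 arrays a condition limits the precision. With each of the 5 tested conditions fitted alone, 0 probes were called. On data simulated for salt shoots at 24 h (394 probes), 80% of 2-fold and 98% of 4-fold changes were recovered, with 2.2% false calls. The simulated noise had a single spread per probe and a constant dye shift, as the model assumes, so arrays of unequal quality are not covered. In the real data the 20 calls of that condition fell to 0 when it was fitted alone, with the day of quantification as a block, or without array 1 or 3. A spot with a median of at least 64000 counted as saturated. Probes named are those with the largest root values, the smallest p where none passed, those beside each limit, the extremes at 24 h and the widest spreads. Drought and cold arrays were quantified on other days than salt arrays, so day and salt cannot be told apart. A t-test named in the series design was run as an alternative.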

Additional observations from a re-analysis of the deposited data

Results flagged for a closer look

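The difference between drought and cold was tested for each tissue in the same limma model, with 4 contrasts between conditions added after the data were seen. In leaves, CA0863 was the member that passed: its log2 ratio was -0.33 in drought and 0.60 in cold, a difference of -0.92 (SE 0.24, adjusted p = 0.0425). Of all probes tested in that contrast, 15 of 403 (3.72%) passed. By array, the probe had -0.45, -0.90 and 0.06 in drought leaves and -0.28, 0.86 and 0.90 in cold leaves, so array 1 of cold lies within the range of the drought arrays. Refits chosen after the data were seen kept the sign, and leaving out 1 of the 6 arrays gave -0.62 to -1.21 with adjusted p from 0.0114 to 0.116 in limma. The call was lost without array 2 or 3 of drought leaves, without array 2 or 3 of cold leaves, and with no dye term (adjusted p = 0.144). The other 3 contrasts called 0 of 389, 0 of 388 and 0 of 415 probes.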

How the results depend on the processing

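The number of members was between 36 and 65 under the 9 other settings of the rule, and 48, 89 and 53 without array 1, 2 or 3 of roots at 48 h; without array 2 the detection criterion took 73 in place of 25 and the ratio criterion 16 in place of 29, without array 1 they took 25 and 23, and without array 3 37 and 16. The cause was not tested. In the 24 h scan, 28 of 33 members were above 0 with normexp and loess and 51 of 54 with flagged spots kept. Detection members above background in the treated channel alone at 24 h were 17 or 15 of 25 with 4 of 6 spots or 3 SDs, alternatives added after the data were seen. For these 24 h alternatives the share over all probes is not given, so they show only how the member counts move. Of 75 alternative counts of members called, 64 stayed at 0. Scaling between arrays called 1 each in salt shoots at 24 h (U390), drought flowers (U390) and cold leaves (CA0506). Over all probes it called 28 of 394 (7.11%), 2 of 434 (0.461%) and 29 of 429 (6.76%) there. Dropping a spot only where both channels were flagged called 1 in shoots (CA1198) and 1 in cold leaves (U216). Over all probes that setting called 29 of 458 (6.33%) and 19 of 469 (4.05%). Keeping flagged spots or median centring called 1 in cold leaves (U216, CA0863), beside 18 of 756 (2.38%) and 19 of 429 probes (4.43%). Leaving out an array gave 0 to 4 calls in drought flowers, 0 to 1 in cold leaves and 0 in the other conditions. The 4, without array 3, were U022, U224, U323 and U390 of 19 members tested, where 33 of 191 probes (17.3%) were called. The 1 in drought flowers without array 2 stands beside 23 of 194 (11.9%). In cold leaves the 1 stands beside 3 of 341 (0.88%) without array 1 and 11 of 312 (3.53%) without array 2. The methods' t-test called 0 members after adjustment in each condition, beside 1 of 429 probes (0.233%) in cold leaves and 0 in the others. Before adjustment it called 3, 3, 0, 2 and 6 in salt shoots at 24 h, drought leaves, drought flowers, cold leaves and cold flowers. The share over all probes before adjustment is not given. The 10 tested ratios with the smallest p in their conditions kept their sign in all 147 alternative values and passed in 7. Other estimates in the text, such as U270 in shoots at 24 h and U074 in cold leaves, were not part of that count. No paired analysis was possible because each array already pairs stressed with control RNA and no label ties a replicate number of one condition to that of another.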
